A study of Caenorhabditis elegans with 2 samples.

Results

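The genes described here are 9 regulators of RNA that are best known from the germline of Caenorhabditis elegans, out of 19973 protein-coding genes on the nuclear chromosomes. They are the splicing helicase genes mog-1, mog-4 and mog-5, the translational repressor genes ifet-1, cgh-1, car-1 and gld-1, and the germ granule genes glh-1 and pgl-1. The genes were chosen by their signal, score and rank in these same peak lists, including genes with no peak, so the counts and signals of the 9 genes are a description and no test was made on them. Each gene was taken as its annotated body plus 2 kb on each side, and a region belonged to it when at least 1 bp of the region lay in that window.

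The data come from chromatin immunoprecipitation and sequencing (ChIP-seq) of the homeodomain protein CEH-88 in whole L1 larvae of age 6 h, which had been bleached for synchrony and starved. There was 1 group of 2 biological replicates of strain OP593, whose transgene wgIs593 holds ceh-88 fused to the TY1, EGFP and 3xFLAG tags together with unc-119(+), in an unc-119 (tm4063) background. The antibody recognised GFP. No strain without the tagged protein was analysed here, so DNA that CEH-88 binds and DNA that would be recovered without it cannot be told apart, and whole animals give no cell type for a peak.

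In the C. elegans germline, many mRNAs are made early and then kept silent by RNA-binding proteins, partly in cytoplasmic granules, until the germ cells need them. The hermaphrodite germline makes sperm and then switches to oocytes, and loss of a mog gene (masculinisation of the germline) blocks that switch. In a starved L1 larva the germline is a pair of arrested primordial germ cells among the somatic cells, and the splicing helicases are also used outside the germline.

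Peaks lay at 3 of the 9 genes, mog-4, ifet-1 and cgh-1, and each of those peaks was upstream of the gene. The sequence around each summit, the point of highest signal, is shown because these are the places where the immunoprecipitated DNA was concentrated. Each is 121 bases of the RefSeq copy of WBcel235 (the same assembly as ce11), 60 bases on either side of the summit. Each is written 5′ to 3′ on the strand of the gene, which is the minus strand in all 4 cases. The mog-4 sequence is chrII:14561801-14561921, the ifet-1 sequence is chrIII:4475608-4475728, and the cgh-1 sequences are chrIII:7498567-7498687 (near) and chrIII:7499616-7499736 (far). Capitals mark TAAT, the core letters of many homeodomain sites, and CGCGAA, each on either strand.
mog-4: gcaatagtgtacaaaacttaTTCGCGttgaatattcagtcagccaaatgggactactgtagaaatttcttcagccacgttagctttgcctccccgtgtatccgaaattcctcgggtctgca
ifet-1: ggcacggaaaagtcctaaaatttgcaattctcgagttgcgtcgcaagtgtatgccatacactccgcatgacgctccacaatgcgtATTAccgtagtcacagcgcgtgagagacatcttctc
cgh-1 near: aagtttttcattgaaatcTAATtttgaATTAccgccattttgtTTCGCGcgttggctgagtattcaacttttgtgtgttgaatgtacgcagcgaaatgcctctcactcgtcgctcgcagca
cgh-1 far: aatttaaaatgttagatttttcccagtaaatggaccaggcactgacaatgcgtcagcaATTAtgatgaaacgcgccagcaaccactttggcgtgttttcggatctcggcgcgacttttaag

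In the conservative list, which the authors built for the whole series, 3 of the 9 genes had a peak, against 9.27% of all protein-coding genes counted the same way. The other thresholded list of the series also gave 3 genes, beside 10.2% of all genes. Replicate 1 alone gave the same 3 genes, beside 8.9% of all genes. Replicate 2 alone gave 2, mog-4 and ifet-1, beside 5.86% of all genes. Since the genes were picked with these lists in view, the count says nothing about how often germline regulators are bound. No peak lay within a gene body: without the flanks, 0 of the 9 genes had a peak, beside 3.25% of all genes. The windows ran from 5571 to 13096 bp, against a median of 6027 bp over all genes, and the longest was that of mog-4.

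The lists differ in size. The authors kept 1128 peaks in replicate 1 and 698 in replicate 2 by a cut on the irreproducible discovery rate (IDR), a measure of how well ranks repeat between data sets. The conservative list had 1171 and the other series list 1349. In all of them no peak had a score under 830, which equals an IDR of 0.01. Each came with a ranked list that also holds weaker regions, between 85787 and 122341 of them. The signal is the peak caller's own measure of strength, as the authors deposited it, and has no stated scale between lists. Read depth was not given, so its effect on the precision of a signal is unknown.

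Among the splicing helicase genes, mog-4 (WBGene00003392, II 14552504 to 14561599, minus strand) had one of the strongest peaks of the data. MOG-4 is a DEAH-box RNA helicase related to helicases that drive the spliceosome in yeast. Its peak at II 14561716 to 14561984 reached 489 in replicate 1 and 387 in replicate 2, with a signal of 868 in the series list. It was in position 3 of 1171 in the conservative list, position 4 of 1128 in replicate 1 and position 3 of 698 in replicate 2. The summits of the replicates were 7 bp apart, 262 bp upstream of the gene start in replicate 1 and 269 bp in replicate 2. No other protein-coding gene started near it, since the next nearest start, of the neuropeptide-like gene nlp-41, was 9565 bp away. Within mog-4 the next strongest region of the ranked lists was far weaker, at 52.1 in the series list, 18.9 in replicate 1 and 33.2 in replicate 2, with scores of at most 149.

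The other helicase genes of the group, mog-1 and mog-5, had no peak in the 4 thresholded lists. Their products are DEAH-box helicases that act in splicing as well, and loss of either masculinises the germline as loss of mog-4 does. The strongest ranked region in the window of mog-1 (WBGene00003389, III 9952060 to 9956215, minus strand) reached a signal of 13.2 in replicate 1, 20.9 in replicate 2 and 30.8 in the series list. In the window of mog-5 (WBGene00003393, II 5399538 to 5405810, plus strand) the values were 18.6, 17.1 and 32.0. Over all genes with a ranked region, the median of the strongest region was 22.6 in replicate 1, 21.7 in replicate 2 and 37.3 in the series list. Both genes were thus below the middle of all genes in each of these lists. Their strongest regions lay downstream of the gene start, by at least 1503 bp for mog-1 (in replicate 1 by 4663 bp, past the end of the gene) and by at least 2755 bp for mog-5, where mog-4 had its peak upstream.

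**Figure D1:**
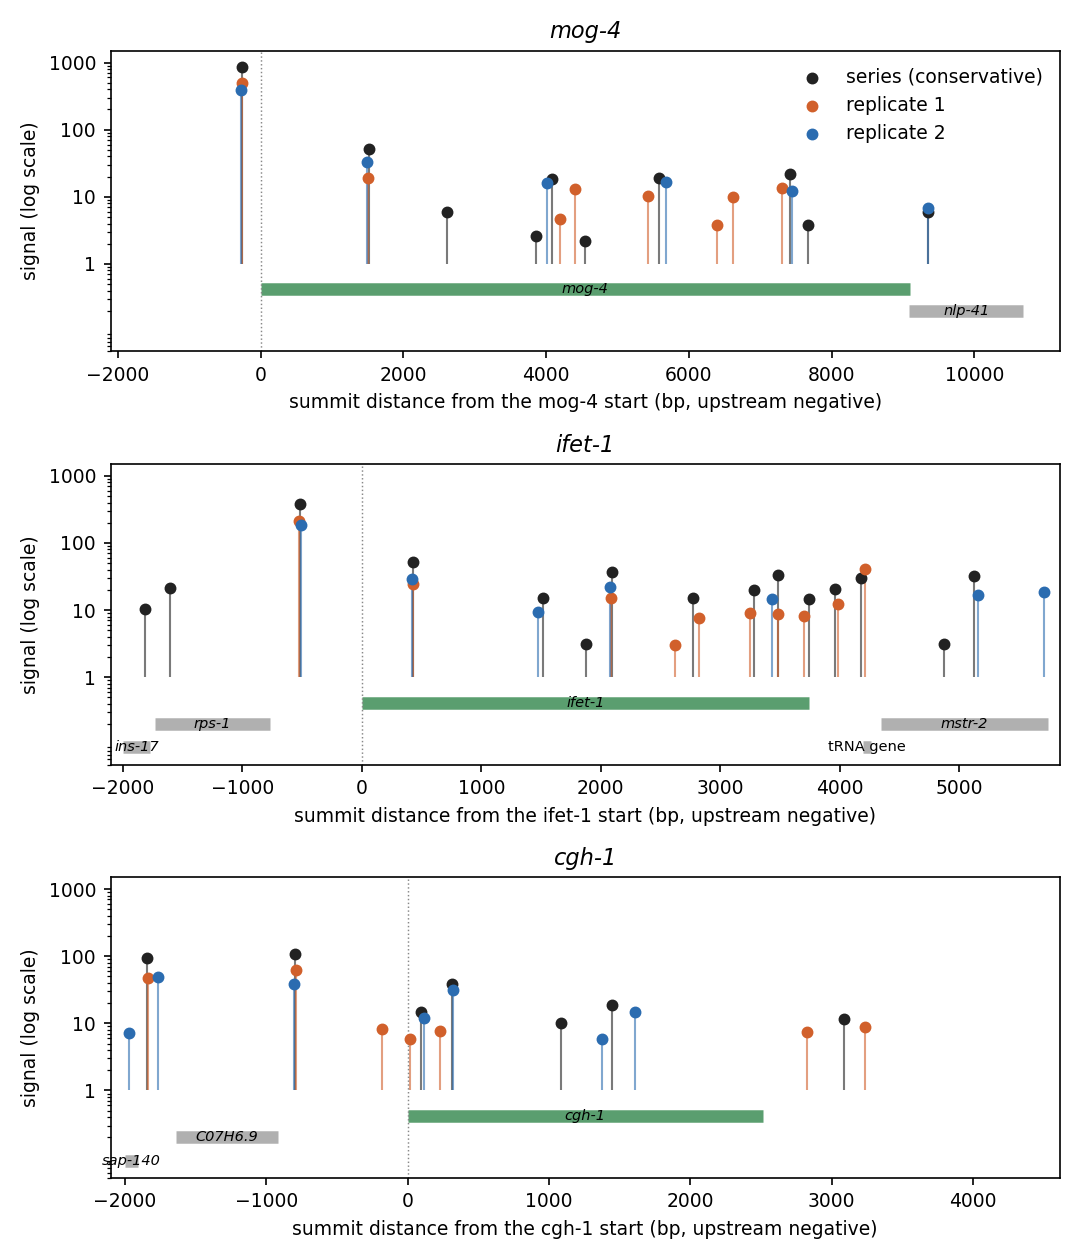
Summits of ranked regions around mog-4, ifet-1 and cgh-1, plotted by distance from the gene start in bp (upstream negative) against signal on a log scale. The lists are the ranked series list paired with the conservative list and the ranked list of each replicate. Green bars are the genes and grey bars are neighbouring protein-coding or tRNA genes. At mog-4 the points at 868, 489 and 387 stand above all others of the window, and at cgh-1 a pair of upstream regions stands out, with series signals of 107 and 93.0.

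The peak upstream of ifet-1 (WBGene00004132, III 4471411 to 4475150, minus strand) lay between 2 genes that point away from each other. IFET-1 binds the cap-binding translation factor and represses translation in oogenesis. The peak, III 4475561 to 4475755, reached 210.1 in replicate 1 and 186 in replicate 2, with a signal of 382 in the series list. It was in position 67 of 1171 in the conservative list, 74 of 1128 in replicate 1 and 58 of 698 in replicate 2. Its summit was 518 bp upstream of ifet-1 but 250 bp upstream of rps-1, which encodes a protein of the small ribosomal subunit. The summit also lay inside F56F3.10, a short gene annotated as ncRNA, and 11 bp from F56F3.11, another. Which of these genes the peak belongs to cannot be told apart from its position.

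A further region beside ifet-1 had its highest score in replicate 1. Its summit there, 4206 bp downstream of the ifet-1 start, was inside a tRNA gene (WBGene00014402) that lies between ifet-1 and mstr-2. It had a signal of 41.6, position 1436 of 85787 and a score of 668, below the 830 at which peaks were kept. Both ranked lists of the series had a region there, with a summit 4179 bp downstream, a signal of 30.0 and scores of 31 and 188. Replicate 2 had no region with a summit within 250 bp of that tRNA gene in its ranked list. Within ifet-1 the intron regions of the replicates lay at like places and scored low, with 24.1 and 29.5 about 430 bp and 422 bp downstream of the start and scores of 75 and 37. In the ranked lists of the series the intron region, 429 bp downstream, had a signal of 51.7 and scores of 446 and 504, also under 830.

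At cgh-1 (WBGene00000479, III 7495320 to 7497832, minus strand) both peaks were of middling strength and neither was called in replicate 2. CGH-1 is a DEAD-box helicase of the DDX6 family that protects and silences stored mRNAs in the germline. The near peak, III 7498429 to 7498824, reached 63.0 in replicate 1 and 38.4 in replicate 2, with a signal of 107 in the series list, position 652 of 1171. The far peak, III 7499478 to 7499873, had 47.9 and 49.1 in the replicates and 93.0 in the series list, position 759. In replicate 1 only the near peak passed, with a score of 1000, while the far region scored 594. In replicate 2 the scores were 395 and 490. The far region of replicate 2 was nevertheless in position 669 of the ranked list by signal, within the 698 places that would hold all peaks of that replicate if signal alone decided. The score follows how well ranks repeat and not signal alone.

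The near summit lay between cgh-1 and C07H6.9, a gene annotated as a class Z serpentine receptor that lies upstream of cgh-1 on the same strand. It was 795 bp upstream of the cgh-1 start and past the 3′ end of C07H6.9. By gene starts cgh-1 was nearest, since the C07H6.9 gene start was 844 bp away, but an inner transcript start of C07H6.9 was at 711 bp. The far summit was 62 bp upstream of sap-140, annotated as a protein associated with the U2 small nuclear ribonucleoprotein, and 205 bp upstream of C07H6.9, against 1844 bp from cgh-1. The summits of the replicates were 10 bp apart at the near peak and 74 bp apart at the far one. Of the 4 peaks in the windows of the 9 genes, those of mog-4 and the near cgh-1 peak had the listed gene nearest by gene starts. Counting the start of every transcript, only the mog-4 peak did.

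**Figure D2:**
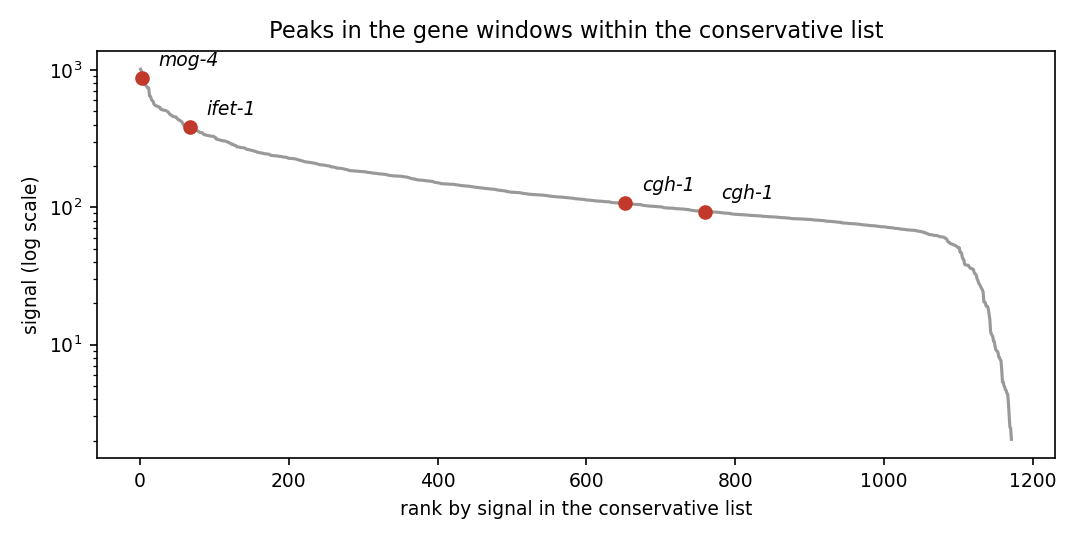
Signal (log scale) of the 1171 peaks of the conservative list against their rank, with the 4 peaks in the windows of the listed genes in red. The mog-4 peak is in position 3 and the ifet-1 peak in position 67, while the cgh-1 peaks are in positions 652 and 759.

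CAR-1, an LSM14-family protein that binds CGH-1 in RNA granules, is encoded by a gene with no region of any kind in these lists. The car-1 window (WBGene00012484, gene body I 12904470 to 12906040, plus strand) held 0 regions in all 4 ranked lists. Of the 19973 genes, 180 (0.901%) shared this. The stretch without a ranked region around car-1 was 18267 bp long in the series list paired with the conservative list, 18728 bp in replicate 1 and 18404 bp in replicate 2. The car-1 window of 5571 bp was the shortest of the 9. A missing region says that the caller ranked nothing there, and whether reads map to the stretch was not tested.

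The remaining translational repressor, gld-1 (WBGene00001595, I 7695681 to 7698222, plus strand), had no peak, and its strongest region had the highest signal of the genes without one. GLD-1 is a KH-domain protein that represses many mRNAs during meiosis and oogenesis. Its strongest ranked region reached a signal of 24.5 in replicate 1, 26.9 in replicate 2 and 40.1 in the series list, with summits 1685 to 1859 bp upstream of the gene. In replicate 1 and replicate 2 the summits were in the annotated 3′ UTR of the neighbour rlbp-1, more than 1000 bp upstream of gld-1. The score there was 429 in the ranked list paired with the conservative list and 213 in the other, both under 830. It was 114 in replicate 1 and 33 in replicate 2. The highest score in the gld-1 window of replicate 2 was 48, below the 56 of mog-1 and of glh-1. By its strongest region gld-1 was in position 7991 of 19434 genes in the series list, 7767 of 19427 in replicate 1 and 4871 of 19494 in replicate 2, in the upper part of all genes in each.

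The germ granule genes had no peak either. GLH-1 is a Vasa-related helicase and PGL-1 a scaffold protein, both constant parts of the P granules. At glh-1 (WBGene00001598, I 6854478 to 6857536, plus strand) the strongest region had 21.7 in replicate 1, 22.6 in replicate 2 and 23.2 in the series list. At pgl-1 (WBGene00003992, IV 6974441 to 6977318, minus strand) the values were 18.2, 20.3 and 23.1. In the series list, where the median over all genes was 37.3, these put glh-1 in position 18251 and pgl-1 in position 18281 of 19434 genes, near the bottom. The order was less low in the replicates, where glh-1 was in position 10642 of 19427 in replicate 1 and 8681 of 19494 in replicate 2. For pgl-1 the positions were 14493 of 19427 in replicate 1 and 11426 of 19494 in replicate 2, below the middle in both. The replicates' strongest glh-1 regions were at different places, 1640 bp and 508 bp upstream of the start. The highest score in either window over the 4 ranked lists was 133, at pgl-1.

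**Figure D3:**
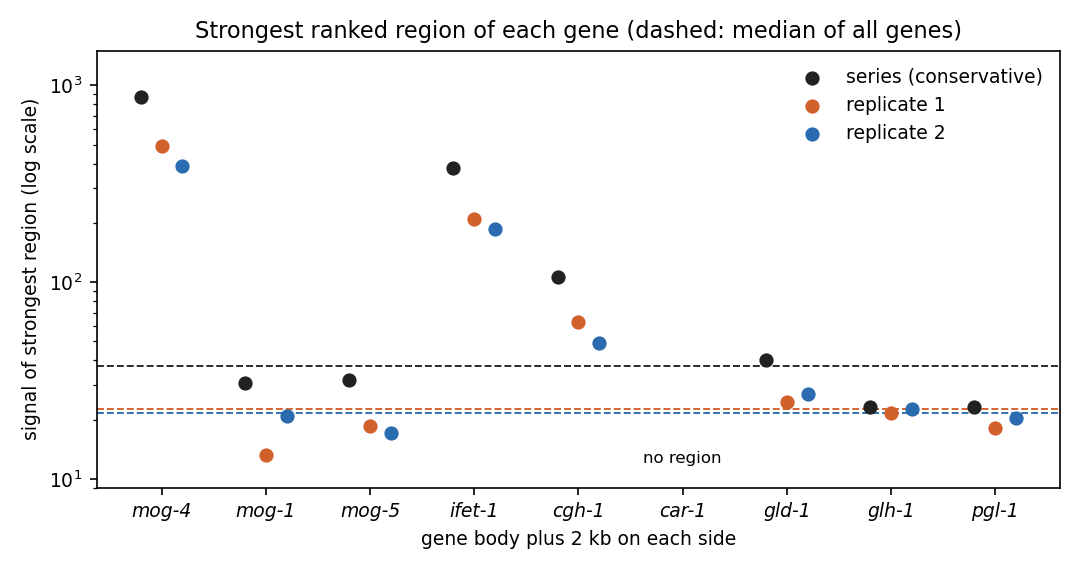
Signal (log scale) of the strongest ranked region in the window of each of the 9 genes. The lists are the ranked series list paired with the conservative list and the ranked list of each replicate. Dashed lines are at the medians over all genes (37.3, 22.6 and 21.7). For mog-4, ifet-1 and cgh-1 all points lie above the lines, for car-1 there was no region, and those of gld-1 lie just above them. Those of mog-1, mog-5, glh-1 and pgl-1 lie below, except for glh-1 in replicate 2 (22.6 against 21.7).

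In order of the strongest region in the series list, the genes were mog-4 (868), ifet-1 (382), cgh-1 (107), gld-1 (40.1), mog-5 (32.0), mog-1 (30.8), glh-1 (23.2) and pgl-1 (23.1), with car-1 without a region. The leading 3 kept this order in both replicates. Among the others gld-1 was highest in both replicates. Below gld-1 the order changed: mog-5 was above mog-1 in replicate 1 (18.6 and 13.2) and below it in replicate 2 (17.1 and 20.9). The levels of mog-5, mog-1 and pgl-1 overlapped between the replicates and give no firm order. In both replicates glh-1 was above these, with 21.7 and 22.6, although it was below mog-5 and mog-1 in the series list.

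At the 4 peaks the ratio between the replicates' signals was typical of the conservative peaks. Since the signal has no stated scale between lists, the ratio is read only beside those peaks. The ratio of replicate 1 to replicate 2 was 1.26 at mog-4, 1.13 at ifet-1, 1.64 at the near cgh-1 peak and 0.975 at the far one. Across the 1152 conservative peaks with a region in both replicates, the median of this ratio was 1.28 and its log2 value had a median of 0.36 and an SD of 0.50. The log2 ratios at the 4 peaks, 0.34, 0.18, 0.71 and -0.04, were all within 1 SD of that median. The replicates' signals here were those of the strongest overlapping region in each ranked list. Some conservative peaks shared the same replicate regions, so some sites entered the median and SD more than once.

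**Figure D4:**
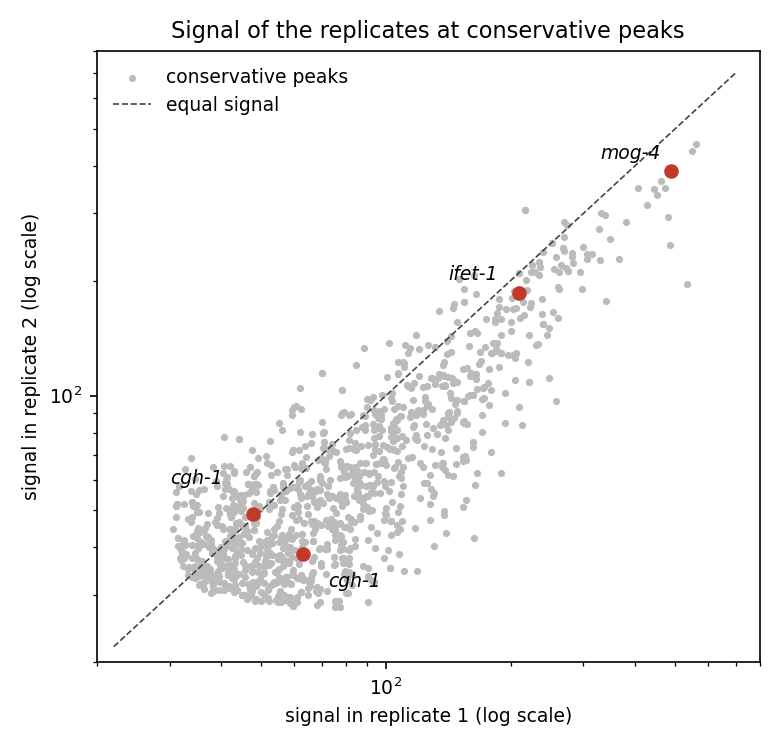
Signal in replicate 1 against signal in replicate 2 (both log scales) at the 1152 conservative peaks with a region in both, with the 4 peaks of mog-4, ifet-1 and cgh-1 in red. The dashed line marks equal signal. The mog-4 (489 and 387) and ifet-1 (210.1 and 186) points lie within the cloud at its upper end.

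The sequences printed above were compared with those of all 1171 conservative peaks. In the 121 bases around the summit, TAAT or its complement was present at 46.6% of all peaks. It was present at ifet-1 and at both cgh-1 peaks and not at mog-4, the strongest of the 4. CGCGAA was present at 9.05% of all peaks and, of the 4, at mog-4 and the near cgh-1 peak. In 301 bases around the summit, ATCGAT was in none of the 4 and in 14.9% of all peaks. In these wider windows TAAT was in all 4 and in 85.4% of all peaks, and GAGA in all 4 and in 95.2%. TTAATTA, which contains TAAT, was at the far cgh-1 peak and in 7.26% of all peaks, and TTTCAG was at ifet-1 and in 33.5%. A match is a description of the letters and not a binding site. The A and T content of the 301 bases was 61.8% at mog-4, 61.8% at ifet-1, 60.5% at the near and 64.8% at the far cgh-1 peak, against a median of 60.1% (SD 7.22) over all peaks.

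Genes that work with the 9 were counted from 4 further lists of RNA regulators, 119 annotated genes in all, of which 22 (18.5%) had a conservative peak. Beside the 9.27% of all genes, the list of mRNA storage, decapping and deadenylation had 10 of 36 (27.8%) and the mog-related splicing list 5 of 22 (22.7%). The germ granule and small RNA list had 3 of 25 (12%) and the germline translational regulators 4 of 36 (11.1%). In the conservative list both were close to the share of all genes. The lists were drawn up with earlier results of these data known, and the differences between them were not tested. In replicate 2 alone the counts were 5, 4, 3 and 3 in the same order, beside 5.86% of all genes. In replicate 1 alone they were 9, 7, 4 and 3, beside 8.9%. As shares, the germ granule list had 16% in replicate 1 and 12% in replicate 2, and the translational regulators had 8.33% in each.

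**Figure D5:**
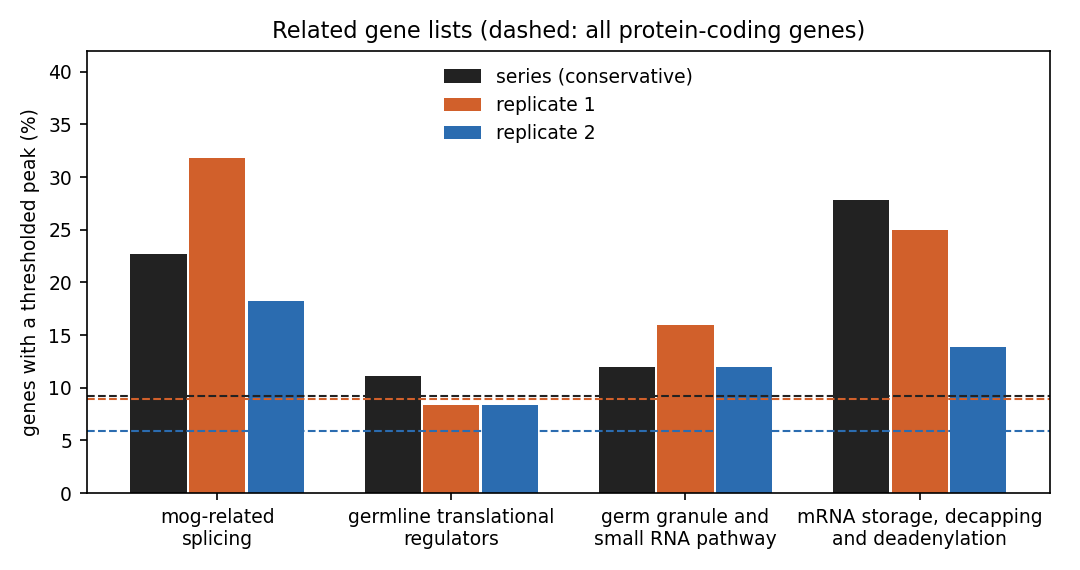
Share of genes (%) with a thresholded peak in the gene body plus 2 kb for the 4 related lists, in the conservative list and in each replicate. Dashed lines mark the shares of all protein-coding genes (9.27%, 8.9% and 5.86%). The mRNA storage list reaches 27.8% in the conservative list and 13.9% in replicate 2.

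In the mRNA storage list the strongest peaks were at sqd-1 (series signal 327), which encodes an RNA-binding protein, at ntl-11 (255) and ntl-2 (201), subunits of the CCR4-NOT deadenylase, and at ain-1 (195), a cofactor of microRNA silencing. The peak of sqd-1 had 183 in replicate 1 and 159 in replicate 2 and lay 317 bp upstream. That of ntl-11 had 134 and 114 and was nearer to the start of another gene, Y73F8A.27. The peak of ntl-2 had 136 and 71.1, and the ain-1 peak, with 130.2 and 54.7, was not called in replicate 2. The decapping gene dcap-1, whose product acts with CGH-1-type helicases in other species, had a series signal of 78.0 with a summit nearest to mrps-25.

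In the mog-related splicing list strong peaks were at cyn-4 (306), a peptidyl-prolyl isomerase gene, prp-19 (196) and teg-1 (178). The cyn-4 peak had 134 in replicate 1 and 167 in replicate 2, and its summit was 3648 bp downstream of the cyn-4 start and 233 bp from the start of cap-2. At prp-19 the replicates had 138 and 49.7, a wider gap than at cyn-4, and the nearest start was that of K10D2.5. The teg-1 summit was in an intron of teg-1, 233 bp from the start of mcm-10, with 96.4 and 83.3 in the replicates. Of the 5 genes of this list with a conservative peak, 3 had another gene's start nearest to the summit and 2 had their own.

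Among the germline translational regulators, peaks were at larp-1 (367), a La-related RNA-binding protein, mex-1 (329), a CCCH zinc-finger protein of the early embryo, atx-2 (271), the ataxin-2 homologue, and lin-41 (85.2). The replicates gave 221 and 144 at larp-1, 184 and 131 at mex-1, and 172 and 98.8 at atx-2. The lin-41 peak was called in neither replicate alone. The nearest starts at the leading 3 were those of wip-1, W03C9.5 and ecps-1, each closer to the summit than the listed gene. Among the germ granule and small RNA genes, peaks were at ekl-1 (175), a Tudor-domain gene, at ego-1 (146), an RNA-directed RNA polymerase gene, and at hrde-1 (74.7), a nuclear Argonaute gene. The ego-1 peak, 439 bp upstream of ego-1 with 71.0 and 75.4 in the replicates, had its own start nearest. The ekl-1 summit was in its 3′ UTR, and the hrde-1 summit was 145 bp from the start of C16C10.4. The hrde-1 peak, with a score of 961, was called in neither replicate alone and not in the other series list.

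A position nearer to another gene was thus found in the related lists as well as at ifet-1 and the far cgh-1 peak. Counting the start of every transcript, of the 22 list genes with a conservative peak, 13 had the start of another protein-coding gene nearest to their strongest summit and 9 had their own. In 17 of the 22 the summit was upstream of the listed gene. Neither share was counted over all genes with a conservative peak, so neither is a trait of these lists. Across all genes, 1852 had a conservative peak and the list held 1171 peaks, so genes had to share peaks.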

How the data were processed

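CEH-88 ChIP-seq in whole L1 larvae of 2 replicates had been deposited as peak lists, for each replicate and for the whole series, with ce11 as the assembly per the labels. The aligner and the peak caller were not given in the sources used here. Each list gives a deposited score, which equals 125 times the negative log2 of the IDR up to 1000, a deposited signal with no stated scale, and the deposited −log10 of a q value, used once to rank. The 8 columns of per-replicate values in the ranked lists of the series were not used. The ranked list that holds all 1171 conservative peaks with identical score was paired with the conservative list (848 in the other). Of the conservative peaks, 1020 have the same region and signal in the other thresholded series list, so these lists are not independent.

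Genes came from Ensembl release 115 (WBcel235) and sequence from RefSeq, and no region ran past a chromosome end. All counting used Python 3.11.15, and figures used matplotlib 3.10.9. The counting was tested on simulated regions. The genes and the 4 related lists (123 names, of which 119 matched) were chosen with earlier results of these data known. The text names all 9 genes, the nearest protein-coding start at each of their peaks and up to 4 genes of highest signal per list, except for 1 gene of the mog-related splicing list, which is not reported here. The list gene dcap-1 was named after its values were seen. Replicates are the labels' biological replicates, no groups were compared, and no test was run. Alternatives were the other lists, each replicate alone, a score of 1000, other windows and other overlap rules.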

Additional observations from a re-analysis of the deposited data

How the results depend on the processing

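Of 59 alternative values, 44 stayed within 1.5 times the main count or within the spread of the replicates. Without flanks the counts fell to 0 of the 9 genes and to 1 in each of the 4 related lists, beside 3.25% of all genes. With windows from 1000 bp upstream to 200 bp downstream of a start, the germ granule list had 1 gene of 25, beside 5.1% of all genes. Leaving out 1 replicate gave 2 to 3 of the 9 genes and 5 to 9 genes of the mRNA storage list, where replicate 2 alone gave 5. The position of the mog-4 peak, as a percentage of the list at or above it, was 0.256 in the conservative list and 0.355 to 0.43 with 1 replicate left out. That of the ifet-1 peak was 5.72 and 6.56 to 8.31. The cgh-1 peak was at 55.7 in the conservative list, 49.8 in the other series list and 61.3 without replicate 2, and had no value without replicate 1, since replicate 2 alone has no cgh-1 peak. Ranked by −log10 q the mog-4 and ifet-1 peaks were both at 26.6, because 311 peaks tie at the highest value. The cgh-1 peak, which is not in that tie, was at 56.4. No paired analysis was possible because there is 1 group. Read depth is unknown, which limits any statement on genes without a peak.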

Other observations

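Across the windows of the 9 genes the ranked lists held 81 regions in the list paired with the conservative list, 53 in replicate 1 and 58 in replicate 2. None of the regions in these windows reached the lowest score of a thresholded list without also being in that list. A region inside cgh-1, 323 bp downstream of its start in a coding exon, had a signal of 31.2 in replicate 2 (position 2064) with a score of 15, while the regions of replicate 1 inside cgh-1 had at most 7.68.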
